A study of Mus musculus with 9 samples.

Results

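The CD47-SIRPa axis and its companion phagocytosis checkpoint genes were described here across 9 bulk tumor RNA libraries. The 7 genes were Cd47, Sirpa, Thbs1, Calr, Lrp1, Cd24a and Qpctl, out of 22195 genes with listed transcripts. They were chosen by name, with earlier results of these data known. Of these 7, 6 passed the filter on low counts, and Cd24a did not.

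The libraries came from skin tumors grown under the skin of immunocompetent C57BL/6J mice from injected YUMMER1.7 cells, a line of mouse melanoma cells irradiated with ultraviolet light to raise its load of mutations. Mice were given an IgG isotype control antibody, an antibody against B7-H3 or an antibody against PD1, starting when tumors measured 20 to 50 mm3, and each group has 3 libraries. All groups share the strain, the cell line and the tissue, so the control mice also carried the tumor and received an antibody. Whole tumors were dissected, so tumor cells and infiltrating host cells are mixed, and fewer cells of a type cannot be told apart from less RNA per cell. The labels do not give the ages of the mice, the sampling day, or whether each library is a separate mouse, so the p-values rest on the spread among these libraries, which may be technical.

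CD47 is a cell surface protein found on most cells that binds SIRPa, an inhibitory receptor of macrophages, dendritic cells and granulocytes. Bound SIRPa recruits the phosphatases SHP-1 and SHP-2 and restrains engulfment, which makes CD47 a "don't eat me" signal and a target of antibody therapy in tumors. Calreticulin on the surface of a stressed cell acts in the opposite direction through its receptor LRP1, CD24 is a further inhibitory signal read by Siglec-G in mice, thrombospondin-1 is a secreted ligand of CD47, and the enzyme made from Qpctl modifies the CD47 end that SIRPa contacts. The series title pairs blockade of B7-H3 with that of CD47, and the comparisons below address how RNA of this axis stood in tumors under 2 checkpoint antibodies.

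The sequences below mark the parts of Cd47 and Sirpa that the measurements on transcripts turn on, and the site of the enzyme. They are annotated coding sequence on the GRCm38 build, plus strand, written 5′ to 3′ and spliced where the span holds introns. In the first, from the start codon of Cd47 (chr16:49855787-49867802), capitals mark the codon for glutamine, codon 19 (chr16:49867773-49867775), which becomes the first residue of the mature protein and which the glutaminyl cyclase closes into pyroglutamate. In the cassette, the capitals are the whole of a 63-base coding exon that some Cd47 transcripts skip (chr16:49869018-49869080). In the pair of tails, capitals mark the exons of 25 and 33 bases (chr16:49908054-49908078 and chr16:49908703-49908735) that lengthen the cytoplasmic end in Cd47-205 and are absent from Cd47-201. Lower case is the remaining coding sequence, shared up to the end of Cd47-205 at chr16:49910873. Cd47-201 runs on to chr16:49910877 and ends in tga, where Cd47-205 ends in tag. In the Sirpa sequence (chr2:129627946-129627997), capitals mark a 12-base extension of a coding exon (chr2:129627986-129627997) that Sirpa-211 holds and Sirpa-204 lacks.
Cd47 start: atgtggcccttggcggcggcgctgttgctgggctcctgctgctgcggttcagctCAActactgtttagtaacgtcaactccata
Cd47 cassette: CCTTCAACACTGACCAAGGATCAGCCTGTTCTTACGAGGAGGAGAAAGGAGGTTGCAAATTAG
Cd47-205 tail: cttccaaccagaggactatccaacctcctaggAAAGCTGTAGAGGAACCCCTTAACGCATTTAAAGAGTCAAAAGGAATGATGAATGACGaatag
Cd47-201 tail: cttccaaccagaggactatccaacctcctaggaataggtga
Sirpa insert: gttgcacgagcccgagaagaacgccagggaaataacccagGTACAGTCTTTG

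The IgG libraries stand apart from the other 6. Transcripts of major satellite repeats took 87.0 to 92.0% of gene reads under IgG and 5.24 to 38.2% under the antibodies (95% Wilson intervals at most 0.0649 percentage points wide). Reads left outside the satellites came to between 1252540 and 3546706 under IgG and between 5326276 and 14408350 under the antibodies. Olfactory and vomeronasal receptor genes, picked by symbol, were used as a measure of background. They were assumed to be largely silent outside chemosensory tissue, which was not checked gene by gene. These genes had 765 to 4842 CPM (counts per 1e6 reads outside the satellites) under IgG and 40.4 to 280 under the antibodies. Every comparison with IgG therefore sets libraries with 8 to 29 Qpctl reads against libraries with 29 to 99. The part of satellite reads and background in the differences from IgG was not tested beyond the values given beside each result. The labelled melanoma was checked against 8 melanocyte markers: Mitf, the lineage transcription factor, had 4.24 to 9.65 CPM, and the other 7, among them Tyr, Dct and Pmel, had medians from 0 to 0.291 over the 9 libraries.

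From here on CPM are scaled by TMM, which centres the libraries on the typical gene. Levels of different genes are ordered only per kilobase of effective coding length. The within-library ratios further below use CPM without a length term, so only their differences between groups are read. Per kilobase, Calr and Lrp1 were the most abundant of the 7, with means over the 9 libraries of 201 and 174 CPM per kilobase, and Calr stood above Lrp1 in 5 of 9 libraries, so these neighbours were not ordered. Lrp1 stood above Cd47 in 9 of 9 libraries. Cd47 averaged 45.5 and Sirpa 40.7, and Cd47 was the higher in 8 of 9 libraries. Thbs1 followed at 12.8, below Sirpa in 9 of 9 libraries. Cd24a, at 5.69, and Qpctl, at 2.98, came last and exchanged places, with Cd24a the higher in 5 of 9 libraries. Receptor genes averaged 0.971, 0.325 and 2.80 per kilobase in IgG replicates 1, 2 and 3 and from 0.0124 to 0.109 under the antibodies. Cd47, Sirpa, Calr and Lrp1 stood at least 8.45 times above that background in every library, Thbs1 at least 2.98 times, and Qpctl only 1.39 times in IgG replicate 3.

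**Figure D1:**
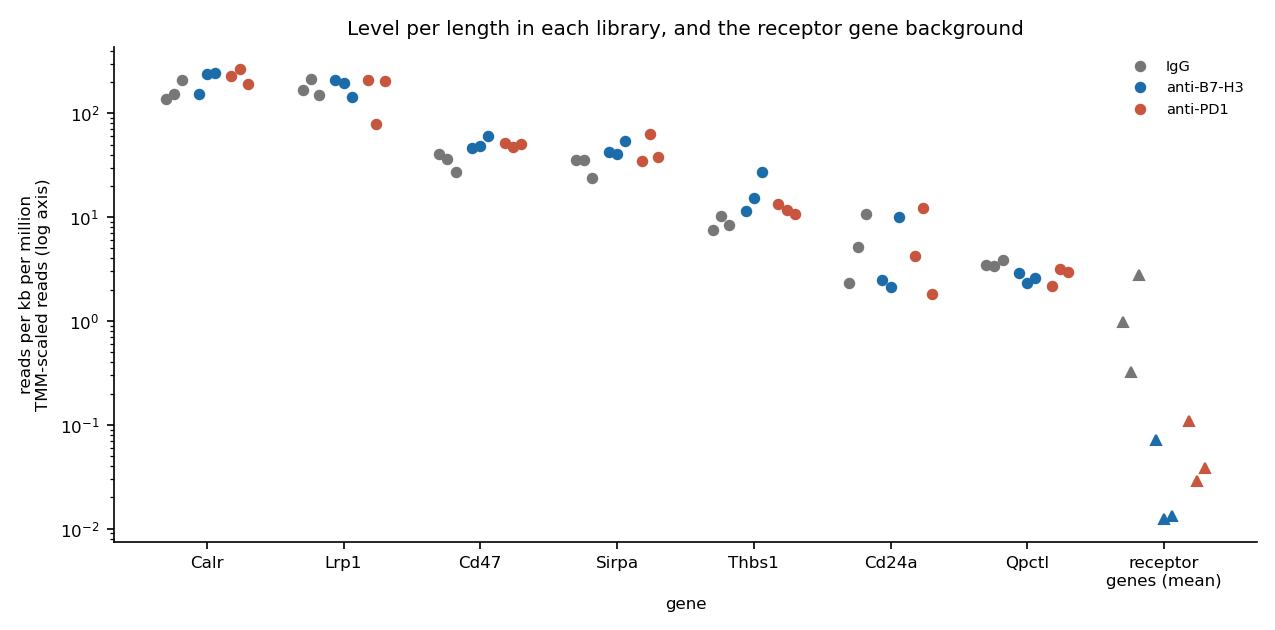
Level of each gene per kilobase of effective length in each library (TMM-scaled CPM per kilobase, log axis; circles, 3 libraries a group) beside the mean of 1510 receptor genes (triangles). Calr and Lrp1 lie at the top. The receptor mean reaches 2.80 in IgG replicate 3, close to Qpctl, at 3.90 in that library, and below Cd24a, at 10.7.

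Of the ligand and receptor pair, both genes stood higher in every antibody library than in every IgG library, by about the same amount under either antibody. Cd47 (ENSMUSG00000055447.19, chr16:49800533-49915010) had 27.8, 28.0 and 21.6 CPM in IgG replicates 1 to 3. It had 34.8, 37.0 and 47.5 CPM under anti-B7-H3, and 40.9, 37.8 and 39.0 CPM under anti-PD1. The highest IgG library, at 28.0, lay under the lowest antibody library, at 34.8, while the antibody groups overlapped. Group means were 25.8 ± 3.65 CPM under IgG, 39.8 ± 6.78 under anti-B7-H3 and 39.3 ± 1.56 under anti-PD1 (SD, n = 3). The log2 fold change against IgG was 0.61 ± 0.18 (SE) under anti-B7-H3, a 1.53-fold level, and 0.59 ± 0.18 under anti-PD1, a 1.51-fold level. Neither passed the threshold of 0.05 in edgeR's quasi-likelihood test with Benjamini-Hochberg adjustment over 12980 genes, with unadjusted p = 0.0063 and 0.0078 and adjusted p = 0.189 and 0.137. Between the antibodies the Cd47 difference was 0.02 ± 0.18, with a 95% interval from -0.37 to 0.41.

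Sirpa (ENSMUSG00000037902.18, chr2:129592835-129632228) had 35.6, 29.8 and 17.9 CPM under IgG. It had 42.1, 41.9 and 64.7 CPM under anti-B7-H3 and 39.97, 65.7 and 39.7 CPM under anti-PD1. All 6 antibody libraries were above the 3 IgG libraries, and 1 library in each antibody group (replicate 3 of anti-B7-H3, replicate 2 of anti-PD1) stood well above its 2 companions. On the log2 scale Sirpa differed from IgG by 0.81 ± 0.29 under anti-B7-H3 and 0.78 ± 0.29 under anti-PD1 (edgeR adjusted p = 0.309 and 0.197), and 0.03 ± 0.28 between the antibodies, with a 95% interval from -0.59 to 0.65. Per kilobase, Sirpa in anti-PD1 replicate 1, at 34.9, lay within the IgG range of 23.6 to 35.4, so the separation from anti-PD1 holds on the scale of reads and not on that of length. Little of the Sirpa coding sequence is shared with its activating relatives: 2 of its 1625 words of 31 bases occur in any other annotated gene.

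Over the 6 tested genes, 0 passed in the comparison between anti-B7-H3 and IgG, where 0.609% of all tested genes did. Likewise 0 passed between anti-PD1 and IgG (0.408% of all tested genes), 0 between the antibodies (0% of all) and 0 in the test of any difference among the 3 groups (1.22% of all). At an unadjusted p under 0.05 in edgeR's test, 3 of 6 stood out under anti-B7-H3 (Cd47, Sirpa and Thbs1) against 10.6% of all genes, 2 of 6 under anti-PD1 (Cd47 and Sirpa) against 18.5%, 0 of 6 between the antibodies against 6.48%, and 3 of 6 in the test over the 3 groups against 14%. Groups did not overlap, with the antibody higher, for Cd47, Sirpa and Thbs1 against IgG in both comparisons, a pattern seen in 7.73% of all tested genes under anti-B7-H3 and 11.1% under anti-PD1. Qpctl was the 1 gene whose antibody libraries all lay below the IgG libraries, a pattern of 8.56% of genes under anti-B7-H3 and 11.9% under anti-PD1. Between the antibodies no member's groups were apart, against 15.5% of all genes. The median log2 fold change of the 6 was 0.50 under anti-B7-H3, 0.48 under anti-PD1 and 0.03 between the antibodies, beside 0.03, 0.01 and 0.01 over all tested genes. Both comparisons with IgG use the same 3 control libraries, so they are not independent of each other. With the summed receptor level as a covariate, Cd47 stood at 0.20 and 0.27 against IgG, Sirpa at -0.24 and -0.08, and Thbs1 at 0.27 and -0.14, and 0 members passed in edgeR's test. Without the filter on low counts, Cd47, Sirpa and Thbs1 passed under anti-B7-H3 and Cd47 passed under anti-PD1. Scaled by library totals, which include the satellite reads and put the median of all genes at 3.37 and 3.15, all 6 passed as higher in both comparisons with IgG, Qpctl included at 2.92 and 2.87.

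**Figure D2:**
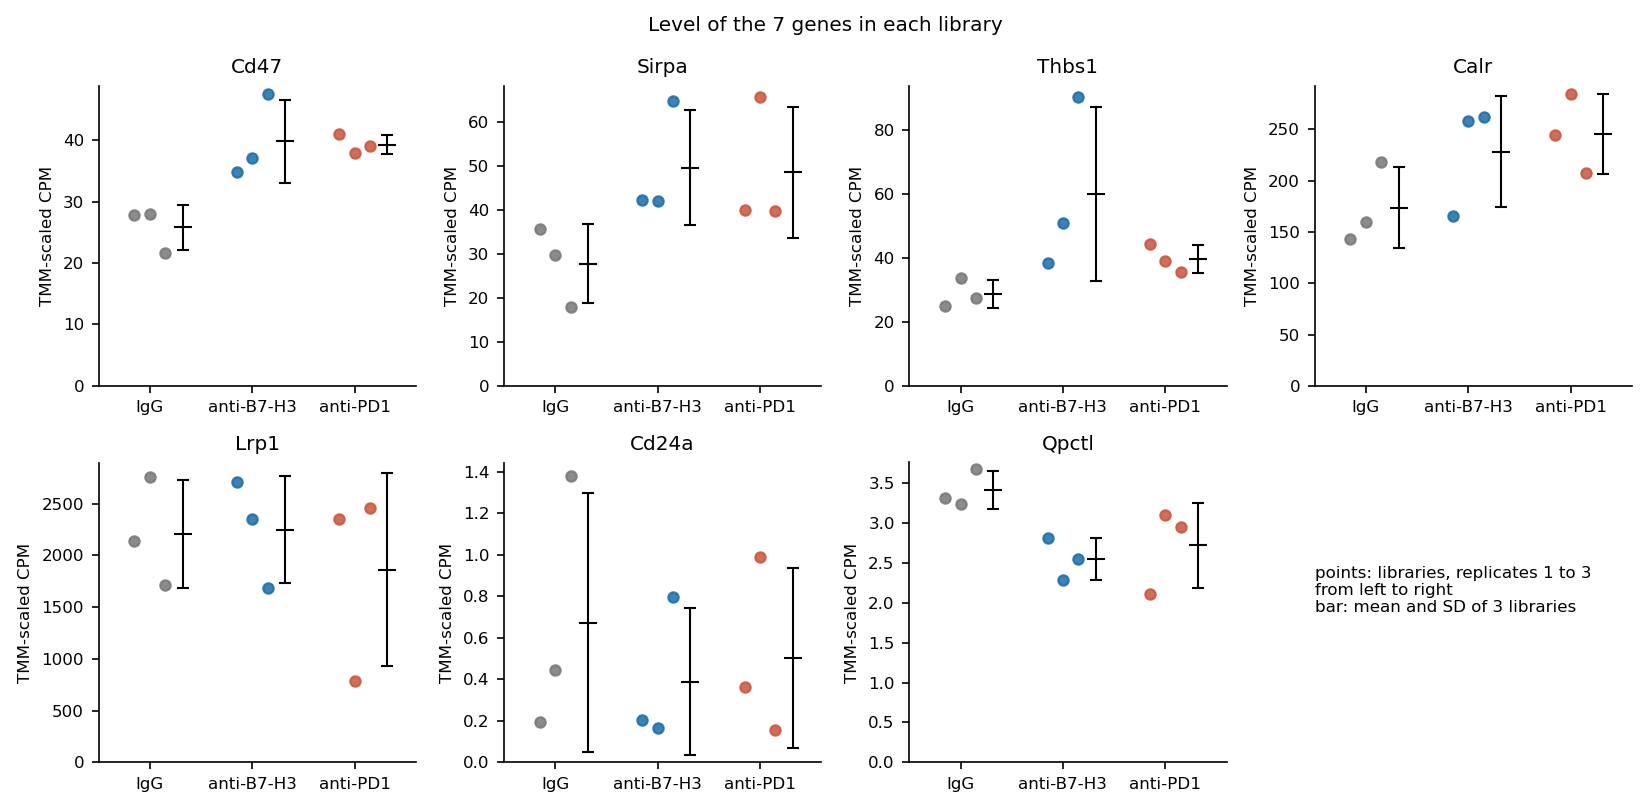
TMM-scaled CPM of each gene in each library (circles, replicates 1 to 3 from left to right; bar, mean and SD of 3 libraries; every axis starts at 0). All antibody libraries lie above all IgG libraries for Cd47, Sirpa and Thbs1 and below them for Qpctl, and anti-PD1 replicate 2 is low for Lrp1 at 784 CPM.

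**Figure D3:**
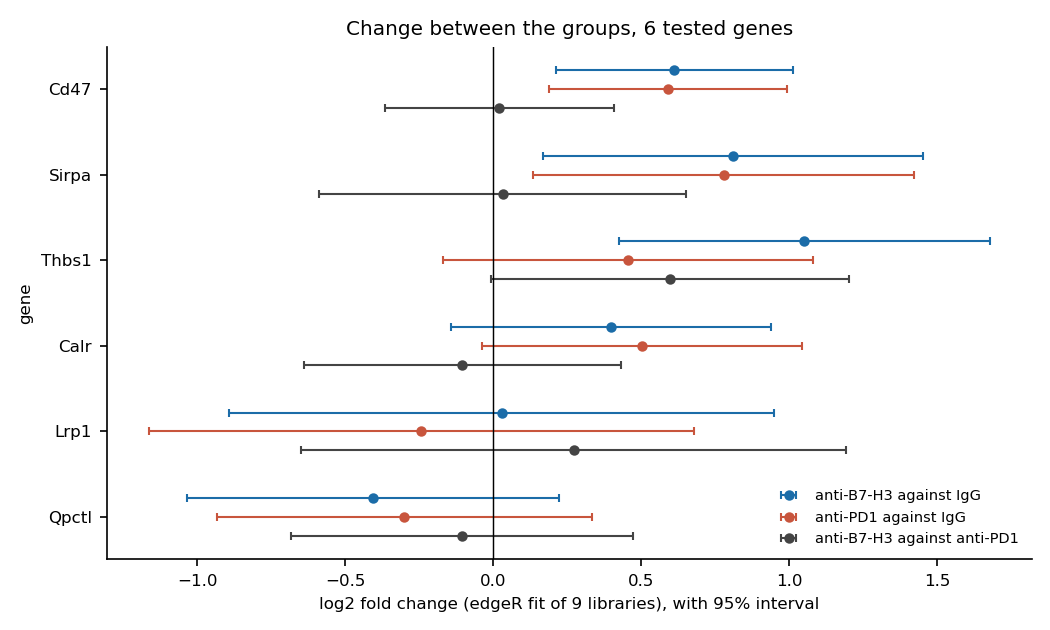
Log2 fold change of the 6 tested genes in the 3 comparisons (points) with 95% intervals (lines) from the edgeR fit. The intervals of Cd47 and Sirpa against IgG lie above 0 for both antibodies, and those of all 6 genes between the antibodies include 0.

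Sirpa was also set against 12 macrophage and monocyte markers in the same library, since SIRPa marks myeloid cells in a tumor. The summed marker level was 697, 612 and 399 CPM under IgG, 865, 619 and 1071 under anti-B7-H3 and 672, 1630 and 557 under anti-PD1. Highest were the same 2 libraries in which Sirpa was highest. Apoe, the apolipoprotein E gene, made up 66.2 to 68.0% of the sum under IgG and 36.6 to 57.5% under the antibodies. The other 11 markers summed to 235, 196 and 135 CPM under IgG, 368, 286 and 679 under anti-B7-H3 and 338, 841 and 257 under anti-PD1. Without Apoe every antibody library thus lay above every IgG library, as for Sirpa, while the sum with Apoe overlapped. None of the 12 markers passed in either comparison with IgG, 11 of 12 had a positive log2 fold change in each, where 53.3% of all tested genes did under anti-B7-H3 and 50.4% under anti-PD1, and Ly6c2 alone was at 0 in its lowest library. The log2 ratio of Sirpa to the mean of the markers was 1.05, 1.13 and 0.88 under IgG, 0.84, 1.08 and 0.88 under anti-B7-H3 and 1.12, 0.58 and 1.19 under anti-PD1. The groups overlapped, and the group means differed by -0.08 under anti-B7-H3 and -0.06 under anti-PD1 against IgG (2-sided exact permutation p = 0.50 and 0.90, where 3 against 3 libraries cannot go below 0.10). In the same way the log2 ratio of Cd47 to Sirpa was -0.35, -0.09 and 0.26 under IgG, -0.27, -0.17 and -0.44 under anti-B7-H3 and 0.03, -0.79 and -0.03 under anti-PD1, again with overlap (exact permutation p = 0.30 and 0.70). Over the 12 tests of 4 such ratios the Benjamini-Hochberg adjusted values of these exact tests ran from 0.80 to 1. The ratios carry no length term, so a negative value does not place Cd47 below Sirpa.

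**Figure D4:**
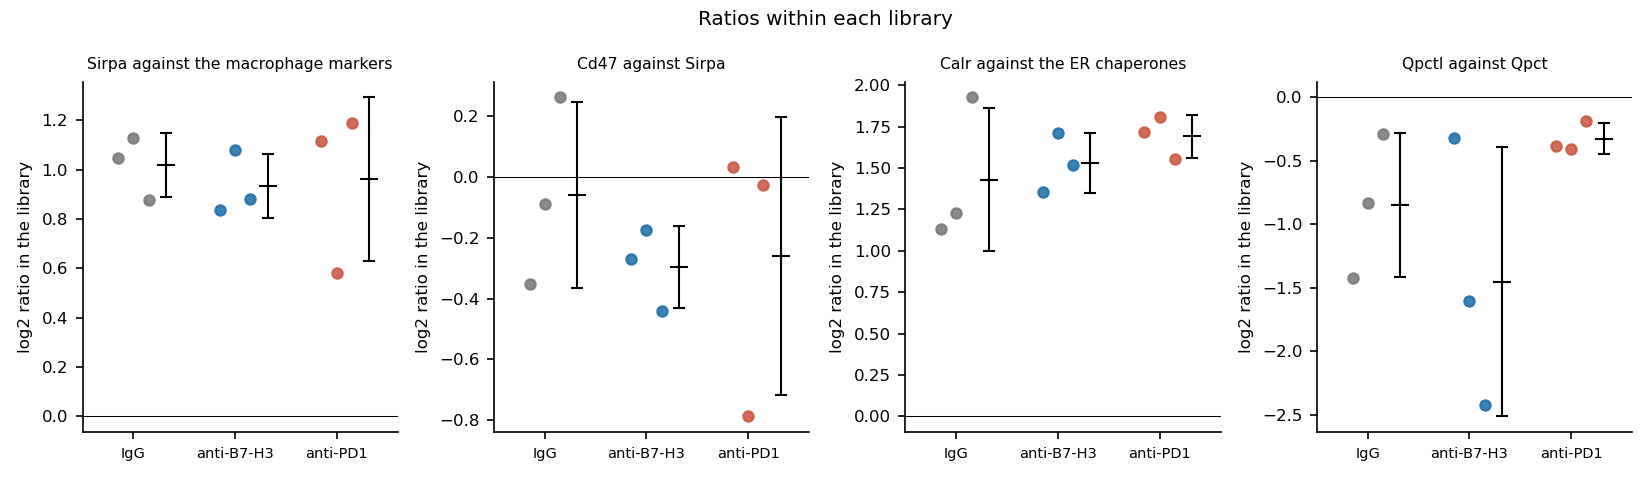
Log2 ratios between levels in the same library (circles; bar, mean and SD of 3 libraries; line at 0 where it falls in the range; the chaperone panel uses 16 genes, 3 of them transcription factors). All 4 ratios overlap between IgG and each antibody, and anti-PD1 replicate 2 is the lowest library for Sirpa against macrophage markers, at 0.58, and for Cd47 against Sirpa, at -0.79.

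The deposited tables divide the reads of a gene among its listed transcripts, a division that the quantifier estimates, so transcript shares are descriptions. Over all libraries, 60.3% of Cd47 reads went to Cd47-205, which has both tail exons shown above, 27.6% to Cd47-201, which has the cassette and no tail exon, and 6.81% to Cd47-207. Cd47-201 was given 0 reads in IgG replicates 1 and 3. Instead Cd47-206 was given 40.8% in IgG replicate 1. In IgG replicate 3, 71.2% went to Cd47-208, which had 0 reads in every other library. Transcripts with both tail exons held 56.1 to 65.8% of Cd47 reads in the 6 antibody libraries, and transcripts with no tail exon 26.1 to 34.3%. Under IgG these shares were 59.2, 70.1 and 100% and 40.8, 29.9 and 0%. Transcripts with the first tail exon only held 1.72 to 17.8% in the antibody libraries, the widest spread of the tail patterns, and 0 in the 3 IgG libraries, where 143, 251 and 47 Cd47 reads allow up to 2.10, 1.20 and 6.38%. The cassette was given 29.8 to 34.3% in the 6 antibody libraries, where Wilson intervals were 4.27 to 7.71 percentage points wide. In IgG replicates 1, 2 and 3 its share was 40.8, 29.9 and 71.2%, and the last rests on 47 reads with an interval from 56.0 to 81.3%. For the cassette the antibody libraries thus lay closer together than the IgG libraries, which rest on 47 to 251 reads. The intervals cover counting error only and leave out the error of dividing reads.

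For Sirpa, 72.5% of reads went to Sirpa-204 and 12.9% to Sirpa-211, which carries the 12-base insert. The insert held 8.51 to 17.4% in the antibody libraries and 9.0, 21 and 25.4% in IgG replicates 1 to 3, the last on 39 reads with an interval from 14.6 to 41.1%. Transcripts with both immunoglobulin-domain exons of 318 and 336 bases (chr2:129615447-129615764 and chr2:129616223-129616558), which encode domains of the outer region of the receptor, took 79.7 to 89.5% in the antibody libraries and 82.3, 75.4 and 58.4% under IgG. By these estimates the long form was the main form in every library. In IgG replicate 3 its share rests on 39 reads, with an interval from 43.4 to 72.9%, so there it was not settled.

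**Figure D5:**
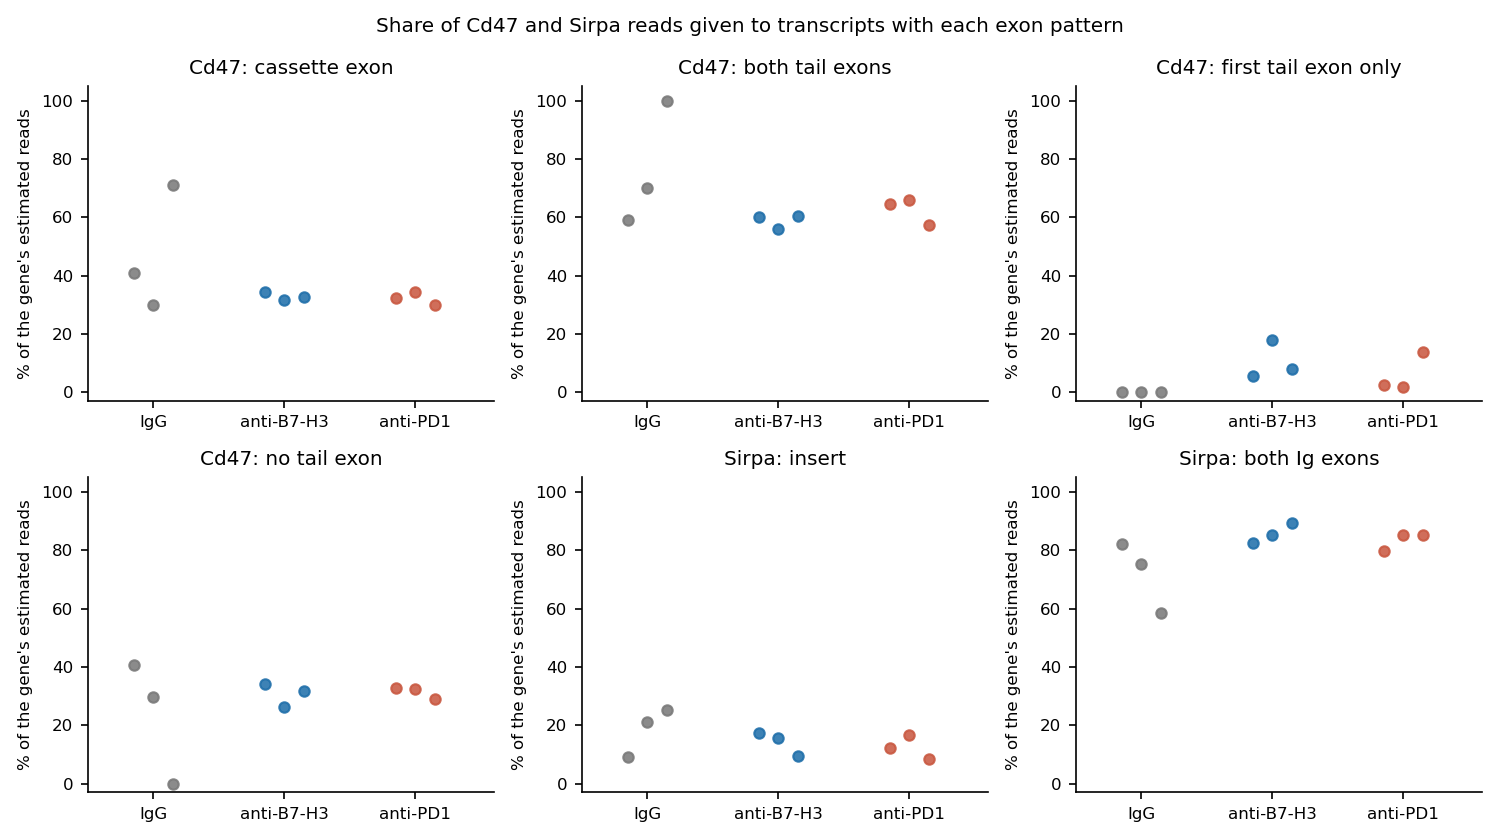
Share of the estimated reads of Cd47 or Sirpa given to transcripts with each exon pattern, in each library (circles; replicates 1 to 3 from left to right, %). The antibody libraries lie close together for the Cd47 cassette, at 29.8 to 34.3%, while IgG replicate 3, with 47 Cd47 reads, lies at 71.2%.

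Thbs1, which encodes the secreted CD47 ligand thrombospondin-1, had the largest difference of the 6 tested genes under anti-B7-H3. Thbs1 (ENSMUSG00000040152.8, chr2:118111876-118127133) had 25.1, 33.7 and 27.6 CPM under IgG, 38.5, 50.8 and 90.4 under anti-B7-H3 and 44.4, 39.0 and 35.6 under anti-PD1. Every antibody library was above every IgG library, and anti-B7-H3 replicate 3 stood far above the rest. The log2 fold change against IgG was 1.05 ± 0.29 under anti-B7-H3, a 2.07-fold level (edgeR adjusted p = 0.142), and 0.45 ± 0.29 under anti-PD1 (edgeR adjusted p = 0.415). DESeq2 called the first at an adjusted p of 0.0264. Without anti-B7-H3 replicate 3 the value was 0.63, and without replicate 1 of that group it was 1.30 (edgeR adjusted p = 0.047). Replicate 3 also held the highest summed level of 7 skeletal muscle markers, 3310 CPM against 24.6 to 1512 in the other 8 libraries, and the part of this in the Thbs1 value was not tested. Between the antibodies the difference was 0.60 ± 0.28 (edgeR unadjusted p = 0.053, adjusted p = 0.749), with a 95% interval from -0.01 to 1.20, so a difference between the antibodies was not shown. The gene Gm29233 on the opposite strand overlaps 187 coding bases of Thbs1, and with the strand used in counting not given in the sources used here, reads there cannot be assigned with certainty.

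Platelets and megakaryocytes, which store thrombospondin-1, had summed marker levels of 6.03 to 16.1 CPM under IgG and 6.17 to 17.7 under the antibodies. Of the 7 platelet markers 2 were tested, Pf4 and Itga2b, and they went opposite ways. Pf4 stood at 0.62 ± 0.51 and 0.97 ± 0.51 and Itga2b at -1.01 ± 0.59 and -1.33 ± 0.60 under anti-B7-H3 and anti-PD1. Pf4 had 16.5 CPM in the library with the sum of 17.7 and 4.60 in the one with 16.1, so like sums did not rest on the same genes. The part of these markers in the Thbs1 values was not tested. Among 10 other thrombospondins and thrombospondin-1 receptors, all tested, 0 passed in any comparison, 6 were higher under each antibody than under IgG, and the medians were 0.16 and 0.19. The smallest p over the 3 groups belonged to Itgb3, a subunit of the vitronectin receptor, at -0.01 ± 0.23 under anti-B7-H3 and -0.72 ± 0.23 under anti-PD1. Next came the cartilage thrombospondin Comp, at -2.0 ± 0.70 and -1.82 ± 0.71, on at most 1.84 CPM in any library, and Thbs2, at 0.90 ± 0.35 and 0.72 ± 0.35.

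Of the engulfment signal and its receptor, Calr had a positive difference with overlapping groups and Lrp1 a difference near 0. Calr, encoding the endoplasmic reticulum chaperone calreticulin (ENSMUSG00000003814.8, chr8:84841850-84846934), had 143, 160 and 218 CPM under IgG, 166, 258 and 261 under anti-B7-H3 and 244, 285 and 207 under anti-PD1. IgG replicate 3 was above replicate 1 of anti-B7-H3 and replicate 3 of anti-PD1. The log2 fold changes were 0.40 ± 0.25 under anti-B7-H3 and 0.50 ± 0.25 under anti-PD1 (edgeR adjusted p = 0.62 and 0.303), and -0.10 ± 0.24 between the antibodies, with a 95% interval from -0.64 to 0.43. The processed copy Calr-ps shares 56 of the 1218 coding words of 31 bases. These are RNA levels, and calreticulin acts in engulfment only once it reaches the cell surface.

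Calr was compared with other genes of protein folding and stress in the endoplasmic reticulum, 14 of them chaperones, folding enzymes and related proteins and 3 the transcription factors Atf4, Ddit3 and Xbp1. Of these 17 listed genes, all tested, 0 passed in any comparison, 15 were higher under anti-B7-H3 and 13 under anti-PD1 than under IgG, and the medians were 0.22 and 0.34. Without the transcription factors, 13 of 14 were higher under anti-B7-H3 and 12 under anti-PD1, with medians of 0.29 and 0.37. Sdf2l1, a cofactor of protein folding, stood at 1.10 ± 0.36 under anti-B7-H3 and 0.66 ± 0.36 under anti-PD1. The disulfide isomerase gene Pdia4 stood at 0.30 ± 0.17 and 0.49 ± 0.17, and Atf4, a transcription factor of the stress response, at 0.22 ± 0.23 and -0.41 ± 0.23. The log2 ratio of Calr to the mean of 16 of these genes, all but the scarce Calr3, was 1.43 ± 0.43 under IgG, 1.53 ± 0.18 under anti-B7-H3 and 1.69 ± 0.13 under anti-PD1 (SD, n = 3). The groups overlapped (exact permutation p = 0.70 and 0.40 against IgG). Against the 13 genes left without the transcription factors, the ratio was 1.04 ± 0.36 under IgG, 1.10 ± 0.23 under anti-B7-H3 and 1.19 ± 0.12 under anti-PD1 (SD, n = 3), again with overlap (exact permutation p = 0.90 and 0.50).

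Lrp1 (ENSMUSG00000040249.15, chr10:127538161-127621148), a large endocytic receptor of macrophages, fibroblasts and other cells, had 2134, 2756 and 1717 CPM under IgG and 2706, 2347 and 1687 under anti-B7-H3. With anti-PD1 it had 2347, 784 and 2453 CPM, and replicate 2 was the lowest of all 9 libraries. The log2 fold change was 0.03 ± 0.42 under anti-B7-H3, with a 95% interval from -0.89 to 0.95, and -0.24 ± 0.42 under anti-PD1, with an interval from -1.17 to 0.68. Without anti-PD1 replicate 2 the anti-PD1 value turned to 0.13. That library also had the lowest summed fibroblast marker level among the antibody libraries, 4234 CPM against 5140 to 8487 in the other 5, a sum made up mostly of the collagen genes Col1a1, Col1a2 and Col3a1. The fibroblast markers Lum, Dpt and Dcn went the other way and were each at their highest of all 9 libraries there, at 54.0, 9.18 and 80.0 CPM. The same library had the highest macrophage marker level, and the part of these markers in the Lrp1 value was not tested. Nearly all Lrp1 reads, 98.2%, went to the full-length transcript Lrp1-201 of 13638 coding bases.

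Among 17 relatives, ligands and adaptors of LRP1, all tested, 0 passed, 12 were higher under anti-B7-H3 and 7 under anti-PD1 than under IgG, and the medians were 0.10 and -0.08. Lrp8, a receptor for reelin, stood at -0.15 ± 0.22 under anti-B7-H3 and -0.74 ± 0.23 under anti-PD1. Lrp2, a receptor of absorptive epithelia, stood at -3.80 ± 1.06 and -3.48 ± 1.06. Its IgG levels of 5.25, 0.67 and 13.3 CPM, like those of Lrp8, followed the order of the receptor background in those libraries. The share of all genes with this order was not computed.

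Cd24a, the second inhibitory surface signal, was close to the limit of detection. Its reads numbered 1, 4 and 3 under IgG, 4, 6 and 31 under anti-B7-H3 and 5, 23 and 4 under anti-PD1, and the levels ran from 0.16 to 1.38 CPM. The highest level, 1.38 CPM in IgG replicate 3, came from 3 reads in a library of high background. Because Cd24a (ENSMUSG00000047139.9, chr10:43578284-43584265) failed the filter on low counts, no test or fold is given, and the groups overlapped in every comparison. Its main listed coding sequence is only 231 bases long, and 109 of 332 coding words of 31 bases also occur in the annotated copy Gm6212, so its reads are uncertain. Of 13 listed Siglecs and other inhibitory receptors of phagocytes, 11 were tested, 0 passed, and 10 were higher under anti-B7-H3 and 9 under anti-PD1 than under IgG, with medians of 0.40 and 0.43. The inhibitory receptor genes Siglece, Pirb and Siglec1, the last a sialoadhesin of macrophages, stood at 0.03 ± 0.37, 1.00 ± 0.40 and 0.56 ± 0.30 under anti-B7-H3. Under anti-PD1 the same 3 stood at -0.80 ± 0.38, 0.70 ± 0.41 and 0.03 ± 0.30.

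Qpctl encodes the Golgi glutaminyl cyclase that acts on the glutamine whose codon is marked above. It had the lowest mean of the 7 per kilobase, not ordered against Cd24a. Of the 6 tested it was the 1 gene with a negative log2 fold change under both antibodies. Qpctl (ENSMUSG00000030407.2, chr7:19139702-19149291) had 3.31, 3.24 and 3.68 CPM under IgG on 17, 29 and 8 reads. It had 2.81, 2.28 and 2.54 CPM under anti-B7-H3 and 2.11, 3.10 and 2.94 CPM under anti-PD1. All 6 antibody libraries were below the 3 IgG libraries, the opposite of Cd47. On the log2 scale Qpctl differed from IgG by -0.41 ± 0.29 and -0.30 ± 0.29 (edgeR's adjusted p = 0.67 and 0.608). Qpctl was only 3.59, 10.4 and 1.39 times the receptor background in the IgG libraries, against 19.7 to 197 times in the antibody libraries. Subtracting that background per kilobase turned its log2 ratio from -0.47 to 0.20 under anti-B7-H3 and from -0.38 to 0.28 under anti-PD1, and the groups then overlapped. The same step left Cd47 at 0.65 and 0.59, from 0.59 and 0.54, with the groups still apart. It put Sirpa at 0.60 and 0.58, from 0.54 and 0.52, apart from IgG under anti-B7-H3 and overlapping it under anti-PD1. It took Thbs1 from 1.04 to 1.29 and from 0.45 to 0.69.

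The secreted relative Qpct and 5 chemokines whose first residue such enzymes modify were also measured, and 0 of these 6 passed. All 6 were higher under anti-B7-H3 than under IgG and 3 under anti-PD1, with medians of 1.10 and 0.45. Qpct had 9.72, 6.14 and 4.60 CPM under IgG, 3.63, 7.97 and 15.9 under anti-B7-H3 and 2.91, 4.27 and 3.41 under anti-PD1, so its anti-B7-H3 libraries spanned more than the other groups. The monocyte chemokine genes Ccl8 and Ccl12 stood at 1.93 ± 0.83 and 1.89 ± 0.70 under anti-B7-H3 and at 2.54 ± 0.84 and 1.54 ± 0.70 under anti-PD1. The log2 ratio of Qpctl to Qpct was -0.85 ± 0.57 under IgG, -1.45 ± 1.06 under anti-B7-H3 and -0.32 ± 0.12 under anti-PD1 (SD, n = 3; exact permutation p = 0.40 and 0.30 against IgG).

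Downstream of SIRPa, 0 of 12 genes for its phosphatases, adaptors and activating relatives passed. Of these, 10 were higher under anti-B7-H3 and 8 under anti-PD1 than under IgG, with medians of 0.40 and 0.23. The activating relatives Sirpb1c and Sirpb1b stood at 1.82 ± 0.55 and 2.00 ± 0.87 under anti-B7-H3 and at 0.65 ± 0.57 and 0.79 ± 0.90 under anti-PD1. Ptk2b, a kinase that binds SIRPa, stood at 0.46 ± 0.26 and -0.20 ± 0.26. Sirpb1c had 3.89, 7.83 and 12.9 CPM in anti-B7-H3 replicates 1 to 3, 1.97, 6.29 and 2.63 under anti-PD1 and 1.84 to 2.57 under IgG. Sirpb1b was scarce, at 1.56, 0.11 and 0 CPM under IgG and 1.18, 2.94 and 2.96 under anti-B7-H3, and these groups overlapped.

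The machinery that SIRPa restrains was described in the same way. Of 15 Fc receptor and activating phagocytosis genes, 15 were higher under anti-B7-H3 and 14 under anti-PD1 than under IgG, beside 53.3 and 50.4% of all tested genes. Their medians were 0.98 and 0.55, and 0 passed. Lyn and Btk, kinases of Fc receptor signalling, stood at 1.03 ± 0.27 and 1.24 ± 0.34 under anti-B7-H3 and at 0.70 ± 0.27 and 1.02 ± 0.35 under anti-PD1. The activating Fc receptor gene Fcgr3 stood at 1.10 ± 0.39 and 1.20 ± 0.40. Of 19 efferocytosis receptors and bridging genes, 16 were tested, 15 were higher under anti-B7-H3 and 12 under anti-PD1, and 0 passed, with medians of 0.42 and 0.29. Havcr2, which encodes the phosphatidylserine receptor TIM-3, stood at 1.32 ± 0.45 and 0.21 ± 0.46, and Cd93 at 0.59 ± 0.22 and 0.67 ± 0.22, while the lipid-binding receptor gene Cd300lf stood at 0.73 ± 0.39 and -0.38 ± 0.40.

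Of 15 genes of the engulfment cytoskeleton, 12 were higher under anti-B7-H3 and 11 under anti-PD1, with medians of 0.38 and 0.31, and 0 passed. Elmo1, which helps to activate Rac, stood at 0.85 ± 0.25 and 0.79 ± 0.25, and the small GTPase gene Cdc42 at 0.41 ± 0.19 and 0.60 ± 0.19. Crk, an adaptor upstream of Rac, went the other way at -1.62 ± 0.39 and -1.74 ± 0.40 (edgeR adjusted p = 0.105 and 0.0728), with 175, 123 and 369 CPM under IgG and 50.4 to 99.4 under the antibodies. The IgG levels of Crk followed the order of the receptor background in those libraries, as did those of Elmo1, Lrp2, Lrp8, Itgb3 and Comp. Only 3 libraries set this order, and its share over all genes was not computed. Elmo1, at 4.69 to 5.51 CPM under IgG, lay below its antibody libraries, at 7.06 to 11.2. The part of background in the values of these genes was not tested. Macrophage markers were higher in the same direction as these lists, with medians of 1.02 and 0.98 over 12 genes, and their part in the list values was not tested.

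The genes whose levels ran most closely with each member were found by the SD of the log2 ratio over the 9 libraries, among 9143 or 9144 candidates. For Cd47 they were Lgals8 (SD 0.088) and Actr2 (0.099), beside a median SD of 0.42 over all candidates. Sirpa ran closest to Hfe (0.138) and Atp6ap2 (0.143), and Calr to Rnf139 (0.086) and Stx7 (0.106). For Qpctl they were Taf8 (0.096) and Trim45 (0.109), and for Lrp1 Atxn2l (0.128) and Iffo2 (0.157). Thbs1 had the loosest partners, Anpep (0.258) and Serpina3n (0.264). All 9 points share the library scale and the divide between IgG and antibody libraries, so these are descriptions without a test.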

How the data were processed

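Each of the 9 deposited tables lists estimated counts per transcript (not normalized) and the effective length, per the file headers. The submitters' processing notes name FastQC 0.11.8 and GRCm38, with the quantifier not given in the sources used here. Of 58083 transcripts, 57473 matched GENCODE M21 by identifier, and the other 610 held 0.0537 to 0.344% of reads. Listed lengths are coding lengths. Estimated counts were added up per gene and rounded to whole numbers, and depth is given as reads outside 12 satellite genes.

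Genes were tested with edgeR 4.0.16 in R 4.3.3 (TMM, filterByExpr, robust quasi-likelihood F test, all 9 libraries, group as the only term), with Benjamini-Hochberg adjustment over 12980 genes and a threshold of 0.05. A further 8661 genes with reads were not tested. Levels per kilobase divide each transcript's reads by its effective length. Within-library ratios use log2 CPM with a pseudocount of 0.5 and a 2-sided exact permutation test over 20 orderings. Alternatives were DESeq2 1.42.0, limma-voom (limma 3.58.1) plain and quality-weighted, size factors of DESeq2, library totals, no satellite genes, other filters, only the libraries compared, transcript length offsets, a receptor covariate, a replicate block and each library left out. Replicates of a group differed beyond sampling noise.

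The genes and lists were chosen with earlier results of these data known. Named besides the 7 genes were the 3 members of each pathway list with the smallest p over the 3 groups and the 2 closest genes of each member. A gene picked by this rule is not reported here. The subtraction of the receptor background, the values without Apoe or without transcription factors, and which marker values to print, were chosen after seeing the data. Satellite genes were those with more than 30% of 15-base words shared with 5 genes named as satellites in earlier work on these data. The combination arm that the series describes was not analysed here.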

Additional observations from a re-analysis of the deposited data

How the results depend on the processing

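With 3 libraries a group and 8 to 29 Qpctl reads in the IgG libraries, small differences could not be resolved, and every value is relative to the typical gene. Library totals, which include the satellite reads, put the median change over all genes at 3.37 for anti-B7-H3 and 3.15 for anti-PD1 against IgG and 0.20 between the antibodies, and then called 6 of 6 members in both comparisons with IgG and 6 in the test over the 3 groups. There Lrp1 with anti-PD1 stood at 2.80, Qpctl at 2.92, 2.87 and, between the antibodies, 0.047 and Calr between the antibodies at 0.12. Without a filter on low counts 3 members (Cd47, Sirpa, Thbs1) were called with anti-B7-H3, 1 (Cd47) with anti-PD1 and 3 over the 3 groups. DESeq2 called 1, Thbs1 with anti-B7-H3, and leaving out single libraries gave 0 to 1. All other alternatives called 0, among them the replicate block, which gave 0 in each comparison. Same-numbered libraries correlated between -0.33 and 0.20 in their deviations from group means, and differently numbered ones between -0.44 and 0.54. The labels do not say whether the numbers pair libraries. With 3 libraries a group these correlations cannot decide it. The receptor covariate, which itself divides IgG from antibody libraries, left Cd47 at 0.20 and 0.27 against IgG and turned Sirpa to -0.24 and -0.079 and Thbs1 with anti-PD1 to -0.14. Between the antibodies it turned Cd47 to -0.066 and Sirpa to -0.16, and quality weights turned Cd47 to -0.070 and Calr to 0.027. The cause was not tested.

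Over all genes, calls with anti-B7-H3, anti-PD1 and over the 3 groups were 79, 53 and 158 in the reported fit. They were 502, 822 and 778 with DESeq2, 479, 303 and 543 without the satellite genes, 1040, 714 and 1652 without a filter, 103, 134 and 155 with the replicate block 0, 7 and 7 with the receptor covariate, 366, 433 and 317 with quality weights, 3, 23 and 82 with at least 10 reads in every library and 12536, 12341 and 12406 with library totals. Limma-voom called 77, 82 and 76, and a fit of only the libraries compared called 20 and 89. Leaving out single libraries gave 8 to 454 under anti-B7-H3, 9 to 438 under anti-PD1 and 11 to 433 over the 3 groups. Between the antibodies DESeq2 called 24 genes, library totals 23 and no filter 4, against 0.

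At least 10 reads in every library put Lrp1 with anti-B7-H3 at -0.00081 and left Qpctl untested. Without single libraries, Lrp1 ran from -0.12 to 0.24 with anti-B7-H3, from -0.48 to 0.13 with anti-PD1 and from -0.094 to 0.52 between the antibodies. Between the antibodies Cd47 ran from -0.13 to 0.11, Sirpa from -0.21 to 0.32 and Calr from -0.21 to 0.082. Against IgG, Cd47 and Sirpa were positive without any single library, from 0.47 to 0.71 and from 0.58 to 1.03 with anti-B7-H3. With a pseudocount of 5, the differences of Sirpa against macrophage markers became 0.076, 0.063 and 0.013. Without single libraries that ratio ran from -0.16 to -0.029 for anti-B7-H3 against IgG, from -0.17 to 0.13 for anti-PD1 against IgG and from -0.22 to 0.085 between the antibodies. Cd47 against Sirpa ran from -0.35 to 0.062 for anti-PD1 against IgG and from -0.30 to 0.11 between the antibodies, and Calr against the chaperones from -0.050 to 0.35 for anti-B7-H3 against IgG. After the receptor background was subtracted, an alternative added after seeing the data, the per-kilobase log2 ratio of Qpctl was 0.20 and 0.28 and that of Thbs1 under anti-PD1 was 0.69.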
